A study of Mus musculus with 11 samples.

Results

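Granulosa cells of the mouse ovary, which line the follicle and nurse the oocyte, were examined for 10 genes of the circadian clock: Per1, Per2, Per3, Cry1, Cry2, Clock, Nr1d1, Nr1d2, Dbp and Tef. The genes were taken by name and not by a rule on their values, but earlier results of these data were known when they were chosen. Their Entrez IDs were looked up in both deposited sets of counts. All 10 were found among 24809 IDs for RNA and among 24541 IDs for the histone mark H3K4me3. The cells came from C57BL/6 mice and were collected by follicular puncture. They were taken at 0 h or at 48 h after equine chorionic gonadotropin (eCG), a hormone that acts on the FSH receptor in mice and starts follicle growth; the labels also name the treatment FSH. RNA sequencing covered 3 libraries in each group, labelled postnatal day 21 in both groups, and chromatin immunoprecipitation and sequencing (ChIP-seq) of H3K4me3 covered 2 in each. The series calls them biological replicates, no age is labelled for the ChIP-seq libraries, and 1 input library completes the 11 samples. No group was kept for 48 h without hormone. The clock time at which cells were taken is not given in the sources used here, so a difference between the groups in hormone, in elapsed time and in time of day cannot be told apart.

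The circadian clock is a loop of transcription factors that most cells of the body run. CLOCK pairs with BMAL1, the product of Arntl, and the pair binds E-box sequences to switch on the Per and Cry genes, whose proteins return to the nucleus and block the pair. A second arm is made of the nuclear receptors REV-ERB alpha and beta, encoded by Nr1d1 and Nr1d2, which repress Arntl from ROR elements that ROR proteins activate. Dbp and Tef encode PAR bZIP factors, which carry the rhythm to output genes through D-box sequences, where the product of Nfil3 opposes them. Per1 and Per2 are also known as genes that hormones and cAMP can induce directly. In the ovary, clock genes cycle in follicular cells and respond to gonadotropins.

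Short promoter windows of the members were searched for these elements. RefSeq promoter windows of 300 bases (250 before and 50 after a transcription start, GRCm38.p6) were found for 9 of the 10 members, 13 windows in all, and not for Per2. Exact matches on either strand were sought for 5 motifs: the E-box CACGTG, the E-prime box CACGTT, the D-box TTANGTAA, the ROR element TNGGTCA and the cAMP response element TGACGTCA. An E-box was found in Per1, Cry1 and Tef (4 of the 13 windows), and in 7.15% of all 32841 windows of that length. An E-prime box was found in Cry1, Cry2 and Nr1d1 (3 of the 13 windows, and 4.69% of all windows). The ROR pattern was matched in Per3, Cry2 and Tef (3 of the 13, and 11% of all), each time by the letters TGACCAA. That pattern is short and leaves 1 letter free, so a match to it need not be a ROR element. A D-box was found in Per3 alone among the members (1 of the 13, and 2.32% of all). None of the members' windows held the cAMP response element (1.79% of all windows), and the windows of Clock, Nr1d2 and Dbp held none of the 5 motifs. No match overlapped another. A match describes the letters in the window and not a bound site. A missing match holds for exact letters in these windows only, and elements elsewhere in or near a gene were not sought.

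The sequences that follow are examples: Cry1 and Per3, each with more than 1 match, and Nr1d1 and Dbp, called in the mark and in RNA respectively. They are written 5′ to 3′ on the gene's strand, with matched motifs in capitals. Only bases before the gene's annotated span are shown. Cry1 (chr10:85185055-85185304, minus strand) has an E-prime box at -79 to -74 and an E-box at -60 to -55 from its start. Per3 (chr4:151044708-151044915, minus strand) has D-boxes at -205 to -198 and -158 to -151 and a match to the ROR pattern at -118 to -112. Nr1d1 (chr11:98775378-98775627, minus strand), the member whose H3K4me3 count fell, has an E-prime box at -28 to -23. Dbp (chr7:45704997-45705099, plus strand), the member whose RNA rose, has no match in the part shown or in the rest of its window.
Cry1: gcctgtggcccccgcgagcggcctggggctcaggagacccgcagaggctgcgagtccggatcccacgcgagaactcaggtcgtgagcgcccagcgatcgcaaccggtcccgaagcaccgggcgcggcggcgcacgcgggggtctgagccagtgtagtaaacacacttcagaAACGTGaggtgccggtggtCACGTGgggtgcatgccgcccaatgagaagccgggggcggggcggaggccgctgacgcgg
Per3: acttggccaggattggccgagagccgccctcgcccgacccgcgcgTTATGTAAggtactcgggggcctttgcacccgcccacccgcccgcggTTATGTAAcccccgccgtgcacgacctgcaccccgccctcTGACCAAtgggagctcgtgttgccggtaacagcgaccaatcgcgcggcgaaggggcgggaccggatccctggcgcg
Nr1d1: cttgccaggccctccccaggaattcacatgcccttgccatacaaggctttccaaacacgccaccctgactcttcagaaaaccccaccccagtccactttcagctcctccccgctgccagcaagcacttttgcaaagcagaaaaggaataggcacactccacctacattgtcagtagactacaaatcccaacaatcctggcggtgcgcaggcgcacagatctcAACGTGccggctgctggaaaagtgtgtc
Dbp: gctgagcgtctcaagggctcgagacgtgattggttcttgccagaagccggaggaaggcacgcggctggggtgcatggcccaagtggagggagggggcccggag

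Depth was 12013849 to 26343971 counts in the RNA libraries and 11989769 to 17968033 in those of H3K4me3. Levels are normalised read counts (CPM, read counts scaled to a common library total with TMM factors), not corrected for gene length, so they are compared between libraries and not between genes. A gene was called when edgeR's quasi-likelihood test over all genes of the assay gave a Benjamini-Hochberg adjusted p under 0.05, with no fold minimum. RNA of granulosa markers was high and summed to 18328 to 23675 CPM at 0 h and 44986 to 46778 CPM at 48 h, and 8 of 12 markers rose and 2 fell. Endothelial markers rose in 10 of 10 cases, from a sum of 121 to 129 CPM to 239 to 745 CPM, with the highest sum in 48 h replicate 1. Red cell markers rose in 3 of the 3 tested (68.5 to 129 CPM, then 164 to 685 CPM), while the globin genes Hba-a1, Hba-a2, Hbb-bs and Hbb-bt had 0 counts in every library. In addition, 5 of 10 oocyte markers fell (94.0 to 106 CPM at 0 h), and at 48 h their sum was 96.5 CPM in replicate 1 but 37.2 and 38.1 CPM in replicates 2 and 3. Theca markers (4690.5 CPM, against 1880 and 1907) and smooth muscle markers (492 CPM, against 198 and 253) also summed higher in 48 h replicate 1 than in replicates 2 and 3. The same held for immune markers (291 CPM, against 171 and 234) and surface epithelium markers (255 CPM, against 186 and 165). The granulosa sum (44986 CPM) and the red cell sum (544 CPM) were not highest there. Of the theca markers 1 rose and 2 fell of 8, of smooth muscle markers 2 rose of 8 and of surface epithelium markers 1 fell of 8, and none of 8 immune markers was called by edgeR or DESeq2, with 1 higher at an unadjusted p under 0.05 in each. The part of these other cells in the results was not tested, and in bulk RNA fewer cells of a type and less RNA per cell cannot be told apart.

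In RNA, Dbp rose after eCG and no other member passed the test. This is 1 of 10 members called, where 31.8% of the 14401 genes tested were called (16.0% higher and 15.8% lower). Of those calls 50.2% were higher, against 26.8% with scaling by library size alone. The median log2 fold change was -0.09 over the members and -0.03 over all genes tested. Estimates were below 0 for 8 members and above 0 for Dbp and Cry1. None was called lower; at an unadjusted p under 0.05, edgeR found 1 lower (Per3) and DESeq2 found 0. Dbp was also the only member whose 0 h and 48 h libraries did not overlap, against 47.9% of all genes tested.

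**Figure D1:**
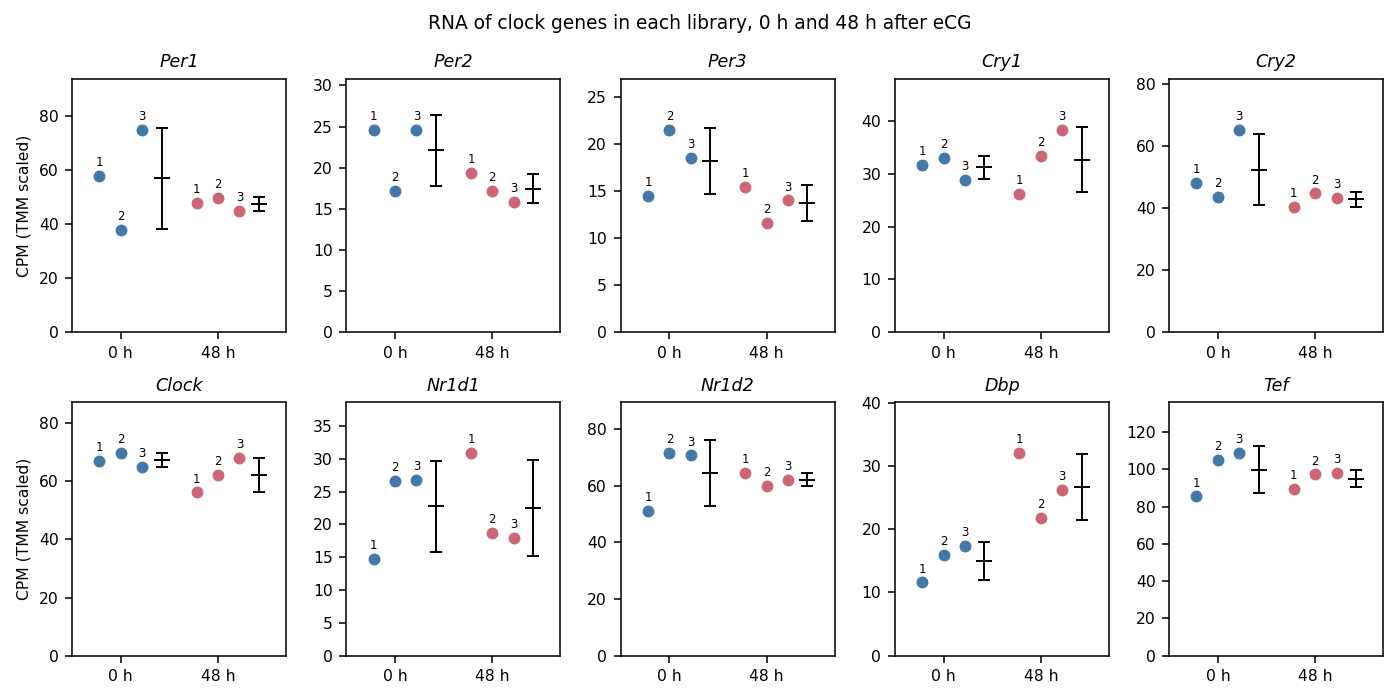
RNA level of each clock gene (normalised read count, CPM, linear axis from 0) in the 3 libraries at 0 h and the 3 at 48 h after eCG; points are libraries numbered by replicate, and the horizontal mark and error bar are the group mean and SD. Dbp is the gene whose 48 h points (21.8 to 32.1) all lie above its 0 h points (11.6 to 17.3); in the other panels the groups overlap.

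The output gene Dbp had 11.6, 16.0 and 17.3 CPM in the 3 libraries at 0 h and 32.1, 21.8 and 26.2 CPM at 48 h. Every 48 h library lay above every 0 h library, as for 22.1% of all genes tested. The mean went from 14.9 ± 3.0 to 26.7 ± 5.16 CPM (SD, n = 3 per group), and the log2 fold change was 0.82 ± 0.18 (SE; 95% interval 0.41 to 1.24; edgeR adjusted p = 0.0103). The highest value was in 48 h replicate 1, the library with the most endothelial, theca and smooth muscle marker RNA. Without that library the log2 fold change was 0.67 (edgeR adjusted p = 0.0206). Dbp passed in all 12 alternatives tried, at log2 fold changes of 0.65 to 0.98 and adjusted p of 0.000310 to 0.0342. Its annotated span (chr7:45705100-45710203) overlaps 741 bases of Sphk2, a sphingosine kinase gene, and whether counting used strand is not given in the sources used here. Sphk2 itself had a log2 fold change of -0.08 (edgeR adjusted p = 0.469).

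Tef, the related PAR bZIP gene, was measured at 85.4, 105 and 109 CPM at 0 h and at 89.6, 97.3 and 97.9 CPM at 48 h. The 48 h values lie within the range of the 0 h values, with a log2 fold change of -0.07 ± 0.10 (SE; 95% interval -0.31 to 0.16; edgeR adjusted p = 0.627). Of these 2 D-box binding factors Dbp alone was called; the difference between them was not tested.

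Among the Per repressors no change was called. Per1 read 57.8, 37.7 and 74.8 CPM at 0 h and 47.8, 49.5 and 44.7 CPM at 48 h. The 0 h libraries enclose all 3 values of 48 h, and the log2 fold change was -0.26 ± 0.21 (SE; edgeR adjusted p = 0.373). The estimate rests on single 0 h libraries: it was 0.00 without 0 h replicate 3, and -0.47 with a call (edgeR adjusted p = 0.0359) without 0 h replicate 2. Per2 read 24.6, 17.1 and 24.6 CPM at 0 h and 19.4, 17.2 and 15.8 CPM at 48 h. As with Per1, 0 h replicate 2 was the low library, and without it Per2 was called lower (log2 fold change -0.48, edgeR adjusted p = 0.0351), against -0.34 ± 0.16 (SE) and 0.136 with it.

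Per3 read 14.5, 21.5 and 18.5 CPM at 0 h and 15.4, 11.6 and 14.0 CPM at 48 h. Here 0 h replicate 1 was the low library, inside the 48 h range, and the log2 fold change was -0.42 ± 0.17 (SE; 95% interval -0.81 to -0.03; edgeR adjusted p = 0.0913). Per3 was called lower without that library (-0.56, adjusted p = 0.0353). With scaling by library size alone, which moved the median of all genes to -0.20, Per3 (-0.60, adjusted p = 0.0263), Per2 (-0.51, 0.0224) and Cry2 (-0.46, 0.0319) were called lower by edgeR. Relative to that median these 3 estimates were close to those with TMM scaling.

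The Cry repressors bind CLOCK and BMAL1 most directly. Cry1 read 31.8, 33.1 and 28.9 CPM at 0 h and 26.1, 33.4 and 38.4 CPM at 48 h. Its 48 h libraries spread to both sides of the 0 h libraries, and the log2 fold change was 0.06 ± 0.14 (SE; 95% interval -0.25 to 0.38; edgeR adjusted p = 0.760), turning to -0.11 with scaling by library size alone. Cry2 read 48.3, 43.6 and 65.4 CPM at 0 h and 40.3, 44.8 and 43.3 CPM at 48 h. Its highest library was 0 h replicate 3, as for Per1, and the log2 fold change of -0.29 ± 0.15 (SE; edgeR adjusted p = 0.159) was -0.09 without that library.

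Clock, the activator subunit, was the member with the least spread at 0 h. It read 67.2, 69.8 and 64.9 CPM at 0 h and 56.2, 62.3 and 68.1 CPM at 48 h. The coefficient of variation was 3.66% at 0 h, where the median gene tested had 9.45%. At 48 h it was 9.56%, near the 10.7% of the median gene. The log2 fold change was -0.11 ± 0.09 (SE; 95% interval -0.32 to 0.09; edgeR adjusted p = 0.366).

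Neither nuclear receptor gene was called, and their means at 0 h and 48 h were close. Nr1d1 read 14.7, 26.7 and 26.8 CPM at 0 h and 30.9, 18.7 and 17.9 CPM at 48 h. One library in each group stood apart in opposite directions, 0 h replicate 1 low and 48 h replicate 1 high, so that the coefficient of variation was 30.5% at 0 h and 32.3% at 48 h. The means of 22.7 ± 6.94 and 22.5 ± 7.27 CPM (SD, n = 3 per group) gave a log2 fold change of -0.02 ± 0.27 (SE; 95% interval -0.63 to 0.58; edgeR adjusted p = 0.957), an interval too wide to tell a moderate change in either direction from none. The Nr1d1 estimate was -0.32 without 48 h replicate 1, the library with the most endothelial, theca and smooth muscle marker RNA. It was -0.25 without 0 h replicate 1, and 0.12 or 0.13 without any other library. Nr1d2 read 51.2, 71.6 and 70.7 CPM at 0 h and 64.5, 59.9 and 62.1 CPM at 48 h. The lowest library was again 0 h replicate 1. The log2 fold change of Nr1d2 was -0.06 ± 0.13 (SE, edgeR adjusted p = 0.768). The span of Nr1d1 overlaps 1075 bases of Thra, the thyroid hormone receptor alpha gene, whose log2 fold change was -0.29 (edgeR adjusted p = 0.0590).

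**Figure D2:**
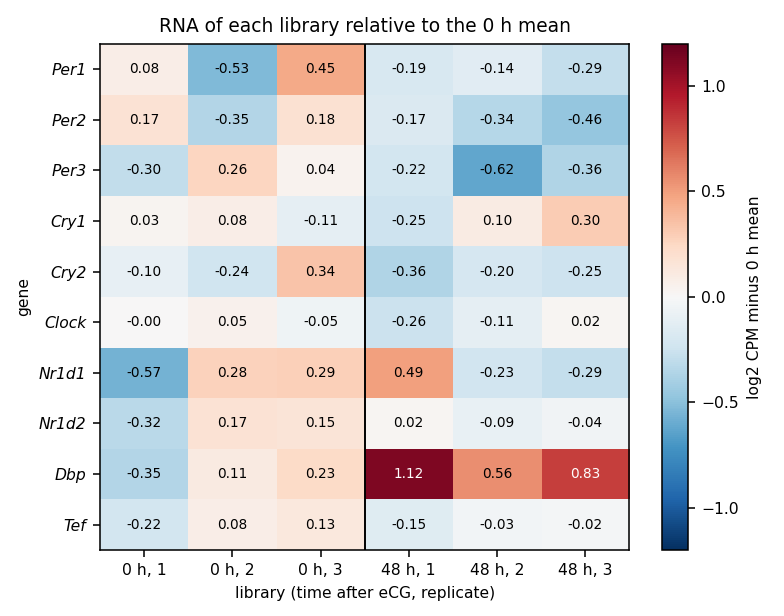
RNA of each clock gene in each library as log2 CPM minus its mean over the 3 libraries at 0 h (colour, log2 units); rows are genes and columns libraries. Per1, Per2 and Cry2 are lowest at 0 h in replicate 2, and Per3, Nr1d1, Nr1d2, Dbp and Tef are lowest at 0 h in replicate 1.

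The members differed in which 0 h library was lowest, in shares not far from those of all genes given the few members. In replicate 2, Per1, Per2 and Cry2 had their lowest 0 h value (3 of 10 members, 35.2% of all genes tested), and all 3 were ordered replicate 3, replicate 1, replicate 2 from high to low, as were 13.8% of all genes. In replicate 1, Per3, Nr1d1, Nr1d2, Dbp and Tef had their lowest 0 h value (5 of 10 members, 35.4% of all genes). Among 15 immediate early genes, which hormones and handling of tissue induce within minutes, 5 had the order of Per1. Nr4a1, an orphan nuclear receptor gene that cAMP induces, read 118, 39.7 and 166 CPM at 0 h, and Jun, an AP-1 subunit gene, read 82.0, 50.9 and 99.4 CPM. Egr1, a zinc finger factor gene, ran the other way at 61.1, 108 and 51.3 CPM. At 48 h, 6 of the 15 were lower and 1 (Dusp1) was higher, where 15.8% of all genes tested were lower and 16.0% higher, and their summed level was 331 to 464 CPM at 0 h and 223 to 265 CPM at 48 h. Of 8 glucocorticoid response genes, Sgk1 and Dusp1 rose and Tsc22d3 and Klf9 fell. The part of sampling time or handling in the spread of the members at 0 h was not tested.

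The genes with the pattern most like 4 of the members over the 6 RNA libraries were found among 9925 genes of at least 10 CPM, by Pearson's r of log2 CPM, as a description. For Per1 they were Taf5l (0.997), Hes6 (0.992), Adrm1 (0.958), Klf10 (0.953) and Hic2 (0.953). Hes6 lies 1938 bases from Per2. For Cry1 they included Nova1 (0.994), Eif5 (0.986), Zbtb8os (0.984) and Evi5 (0.983). For Nr1d1 they were Piezo1 (0.972), Ccdc3 (0.972), Rnf123 (0.967), Abtb2 (0.966) and C3 (0.965). For Dbp they were Ptgfrn (0.992), Fgfr2 (0.991), Slc25a16 (0.988), Unc93b1 (0.985) and Fbxo8 (0.985). All of these were called higher at 48 h by edgeR, but they were chosen by likeness to Dbp over the same libraries. Their calls are therefore no separate evidence. Between members, r was 0.84 for Per1 with Per2, 0.87 for Per1 with Cry2, 0.84 for Nr1d1 with Nr1d2 and 0.84 for Nr1d2 with Tef, while it was -0.07 for Per1 with Nr1d1 and -0.00 for Dbp with Tef. All these points share the same 6 libraries and their scaling. The genes named had the highest r of 9925 over only 6 libraries, where high values can arise from the ranking alone. These values of r therefore do not show shared regulation, which was not tested.

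H3K4me3 is a histone mark of active promoters, and the deposited counts are per gene, over a window that is not given in the sources used here. In H3K4me3, Clock was higher and Nr1d1 lower at 48 h, and the other 8 members did not pass. That is 2 of 10 members called (1 higher and 1 lower), where 8.42% of the 24476 genes tested were called (6.35% higher and 2.08% lower). Of those calls 75.4% were higher, against 52.3% with scaling by library size alone. The groups did not overlap for 7 of the 10 members, against 49.3% of all genes, with 5 above and 2 below. These shares are over genes of all count levels, of which 14698 had at least 5 CPM. Shares over genes of like counts were not computed. The median log2 fold change was 0.08 over the members and -0.00 over all genes. Dbp, the member whose RNA rose, was not among those called.

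**Figure D3:**
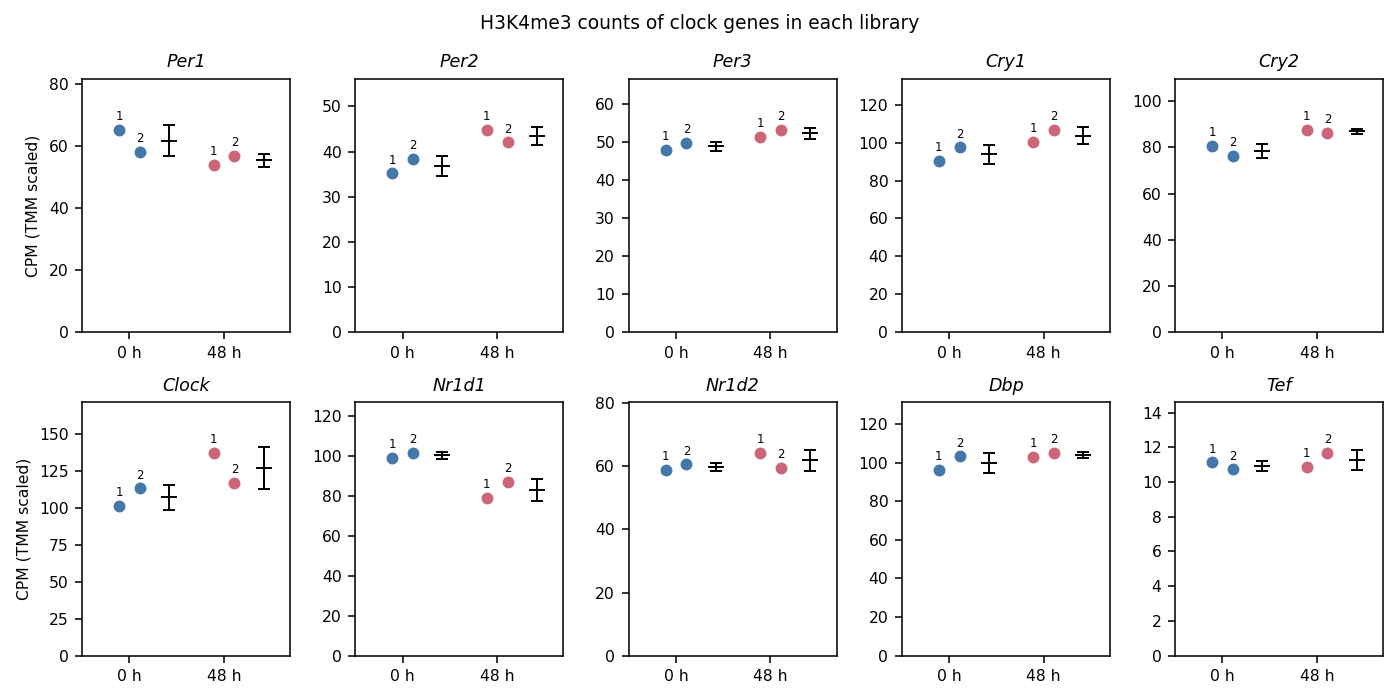
H3K4me3 count of each clock gene (CPM, linear axis from 0) in the 2 libraries at 0 h and the 2 at 48 h; points are libraries numbered by replicate, and the horizontal mark and error bar are the group mean and SD. Nr1d1 lies at 98.9 and 101 at 0 h and at 79.0 and 87.0 at 48 h, while Clock lies at 101 and 113 and then at 137 and 116.

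Nr1d1 had 98.9 and 101 CPM of H3K4me3 at 0 h and 79.0 and 87.0 CPM at 48 h. Both 48 h libraries were lower, as for 22.8% of all genes, and the gap between the groups was larger than the spread within either. The mean fell from 100 ± 1.80 to 83.0 ± 5.69 CPM (SD, n = 2 per group), and the log2 fold change was -0.27 ± 0.07 (SE; 95% interval -0.41 to -0.13; edgeR adjusted p = 0.00992). The direction held in all 11 alternatives (-0.34 to -0.21), but the call was lost when 0 h replicate 1, 0 h replicate 2 or 48 h replicate 1 was left out (edgeR adjusted p = 0.162, 0.104 and 0.164). Thra, which overlaps it, had a log2 fold change of 0.11 in the mark (edgeR adjusted p = 0.405).

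Clock had 101 and 113 CPM at 0 h and 137 and 116 CPM at 48 h. The groups did not overlap, but 48 h replicate 2 lay only just above 0 h replicate 2. The mean rose from 107 ± 8.43 to 127 ± 14.5 CPM (SD, n = 2 per group), and the log2 fold change was 0.24 ± 0.08 (SE; 95% interval 0.09 to 0.40; edgeR adjusted p = 0.0305). Without 48 h replicate 1 it was 0.12 (edgeR adjusted p = 0.591) and without 0 h replicate 1 it was 0.14 (0.671). The call was also lost with DESeq2 (adjusted p = 0.146) and with library-size scaling (0.0588). Tmem165, a membrane protein gene 623 bases away, had a similar value in the mark (log2 fold change 0.23, edgeR adjusted p = 0.0362) and rose in RNA (0.59, edgeR adjusted p = 0.00237), where Clock did not pass.

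No Per gene was called in the mark. Per2 had 35.2 and 38.4 CPM at 0 h and 44.9 and 42.0 CPM at 48 h, both higher, with a log2 fold change of 0.24 ± 0.08 (SE; edgeR adjusted p = 0.0508) that was 0.29 and passed without 48 h replicate 2 (edgeR adjusted p = 0.0118). Per1 had 65.3 and 58.2 CPM at 0 h and 53.9 and 56.8 CPM at 48 h, both lower, at -0.16 ± 0.08 (SE; edgeR adjusted p = 0.203). Vamp2, 2726 bases from Per1, differed from it in sign, at 0.27 (edgeR adjusted p = 0.0104). Per3 had 48.0 and 49.7 CPM and then 51.3 and 53.3 CPM, at 0.10 ± 0.08 (SE; edgeR adjusted p = 0.489).

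Both Cry genes had higher values at 48 h without a call. Cry1 had 90.2 and 97.4 CPM at 0 h and 100.4 and 107 CPM at 48 h, and Cry2 had 80.7 and 76.4 CPM and then 87.7 and 86.2 CPM. Each gave 0.15 ± 0.07 on the log2 scale (SE; edgeR adjusted p = 0.229 for Cry1 and 0.232 for Cry2). In the remaining members the groups overlapped. Nr1d2 had 58.8 and 60.7 CPM and then 64.3 and 59.6 CPM (log2 fold change 0.05 ± 0.07, SE). Tef had the lowest counts, 11.1 and 10.7 CPM and then 10.9 and 11.7 CPM (0.04 ± 0.15, SE). Dbp had 96.1 and 103 CPM at 0 h and 103 and 105 CPM at 48 h, a log2 fold change of 0.06 ± 0.07 (SE; 95% interval -0.08 to 0.20; edgeR adjusted p = 0.680). The upper end of that interval lies below the lower end of the interval for its RNA. The assays have separate libraries and scales, and the difference between them was not tested.

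**Figure D4:**
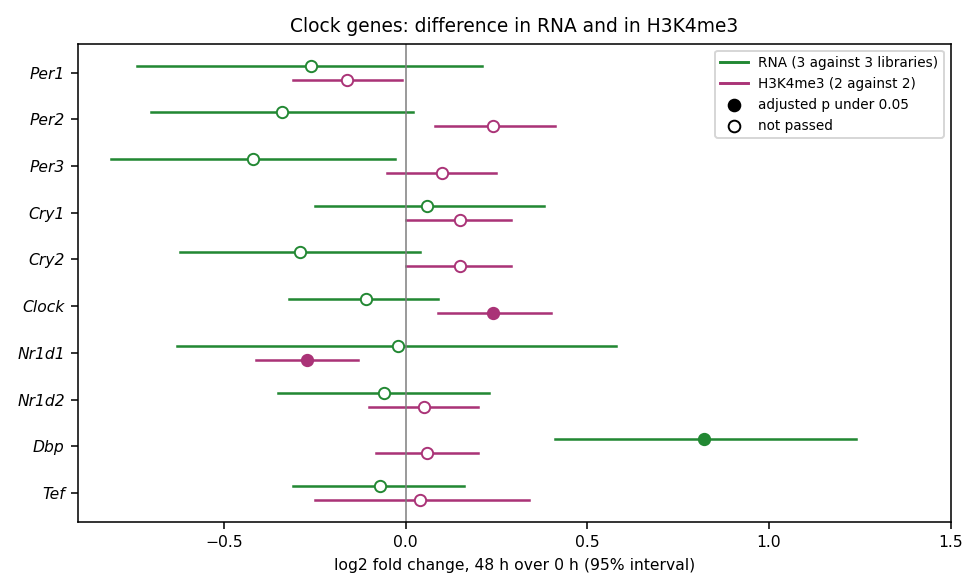
Log2 fold change (48 h over 0 h) of each clock gene in RNA and in H3K4me3; points are edgeR estimates, bars 95% intervals, and filled points passed an adjusted p under 0.05. In RNA the interval of Dbp (0.41 to 1.24) lies wholly above 0, and in H3K4me3 Clock (0.09 to 0.40) and Nr1d1 (-0.41 to -0.13) passed.

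The direction of the estimates was compared between RNA and mark as a description. The estimates had the same sign in 4 of 10 members (40.0%), against 57.2% of the 14357 genes tested in both assays. Some of these signs are unstable. In RNA the sign changed in 6 of 12 alternatives for Nr1d1 and in 2 each for Cry1 and Nr1d2. With 10 members and such signs, no difference from all genes can be read from these shares. No member was called in both: Dbp was called in RNA only, and Clock and Nr1d1 in H3K4me3 only, and the difference between the assays was not tested because they have separate libraries and scales.

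The other genes of the clock were taken from 3 lists with 27 genes in all. Of the 11 other loop genes, 10 were tested in RNA, and 1 rose, 3 fell and 6 did not pass, with a median log2 fold change of -0.48. Nfil3, the D-box repressor that opposes Dbp and Tef, fell from 16.1 ± 2.16 to 9.70 ± 1.07 CPM (-0.73 ± 0.15, SE; edgeR adjusted p = 0.00685). It passed in all 12 alternatives. Rora, a gene for a ROR activator, rose from 18.6 ± 3.41 to 26.3 ± 4.16 CPM (0.49 ± 0.16, SE; edgeR adjusted p = 0.0447) and passed in 5 of 12, and Arntl2, which encodes the BMAL1 relative BMAL2, fell from 5.06 to 2.88 CPM (-0.80 ± 0.22, SE; edgeR adjusted p = 0.0240) and passed in 7 of 12. With 1 library left out, Rora kept its call only without 0 h replicate 3, and Arntl2 only without replicate 1 of either group.

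Arntl itself read 13.3, 11.8 and 10.9 CPM at 0 h and 10.04, 9.08 and 10.8 CPM at 48 h. All 48 h libraries lay below the 0 h libraries, by a small margin, and the log2 fold change of -0.27 ± 0.14 (SE) did not pass (edgeR adjusted p = 0.172). Ciart, a repressor of CLOCK and BMAL1 whose window holds 3 E-boxes, gave 0.56 ± 0.22 (SE; edgeR adjusted p = 0.0801). Hlf, the third PAR bZIP gene beside Dbp and Tef, gave -0.81 ± 0.29 (SE; edgeR adjusted p = 0.0646). The repressor genes Bhlhe40 and Bhlhe41 gave -0.02 and -0.44, and Npas2, a substitute for Clock, gave -0.53, none of them called. Rorb was at 0 to 0.106 CPM at 0 h and 0.230 to 0.610 CPM at 48 h and was removed by the filter on low counts. Without that filter Rorb was called higher (edgeR adjusted p = 0.0250), on values near 0 at 0 h.

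A further 11 genes encode proteins that modify or bind clock proteins, mainly parts of kinases and ubiquitin ligases. Of these, 9 did not pass in RNA. Csnk1e (casein kinase 1 epsilon, which phosphorylates PER) fell (-0.31, edgeR adjusted p = 0.0249). So did Btrc, the ligase subunit that then marks PER for breakdown (-0.30, edgeR adjusted p = 0.0446). Csnk1e and Btrc passed in 7 and 4 of 12 alternatives. With 1 library left out, Csnk1e kept its call only without replicate 1 of either group. Btrc kept it only without 0 h replicate 2 or 48 h replicate 1. None of the 11 rose by edgeR or DESeq2, also at an unadjusted p under 0.05. Of 5 output genes, Tsc22d3, a leucine zipper gene that glucocorticoids also induce, fell from 59.5 ± 5.01 to 42.1 ± 2.57 CPM (-0.50 ± 0.09, SE; edgeR adjusted p = 0.00519), and Usp2, Tspan4, Wee1 and Nampt did not pass. Together 7 of the 26 genes tested were called, where 31.8% of all genes tested in RNA were called, a share near that of these genes. This count was 12 with library-size scaling and 3 to 9 with 1 library left out.

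In H3K4me3, of the 11 loop genes 4 rose, 1 fell and 6 did not pass, with a median log2 fold change of 0.14. Arntl rose from 48.5 and 45.8 CPM at 0 h to 64.4 and 59.2 CPM at 48 h (0.39 ± 0.08, SE; edgeR adjusted p = 0.000362), while its RNA estimate was below 0. Npas2 (0.29), Ciart (0.29) and Bhlhe40 (0.22) also rose. Hlf fell from 43.0 and 41.6 CPM to 30.7 and 33.7 CPM (-0.39 ± 0.08, SE; edgeR adjusted p = 0.000921). Arntl and Hlf each passed in 10 of 11 alternatives and lost the call without 0 h replicate 1 (edgeR adjusted p = 0.0729 and 0.182). With 1 library left out, Npas2 kept its call only without 48 h replicate 2, Ciart only without 48 h replicate 1 and Bhlhe40 in no case. Among the 11 modifier genes Csnk1e (0.28), Btrc (0.24) and Csnk2a2 (0.29) rose and none fell, and of the 5 output genes Tsc22d3 rose (0.32); DESeq2 called none of these 4. Without 48 h replicate 1, Csnk2a2 was at 0.06 (edgeR adjusted p = 0.820), Csnk1e at 0.16 (0.368) and Tsc22d3 at 0.23 (0.268). Without 0 h replicate 1, Btrc was at 0.14 (edgeR adjusted p = 0.687). Csnk1e, Btrc and Tsc22d3 were thus called lower in RNA and higher in the mark, the latter resting on single libraries. In total 9 of 27 genes were called in the mark, where 8.42% of all genes tested were called, but 2 with DESeq2 or library-size scaling and 0 to 9 with 1 library left out. The 8.42% is again over genes of all count levels. The sum of granulosa markers in the mark was 1565 to 1596 CPM at 0 h and 1907 to 1928 CPM at 48 h. No endothelial marker was called there by edgeR or DESeq2, and 4 of 8 surface epithelium markers fell. The part of these markers was not tested.

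**Figure D5:**
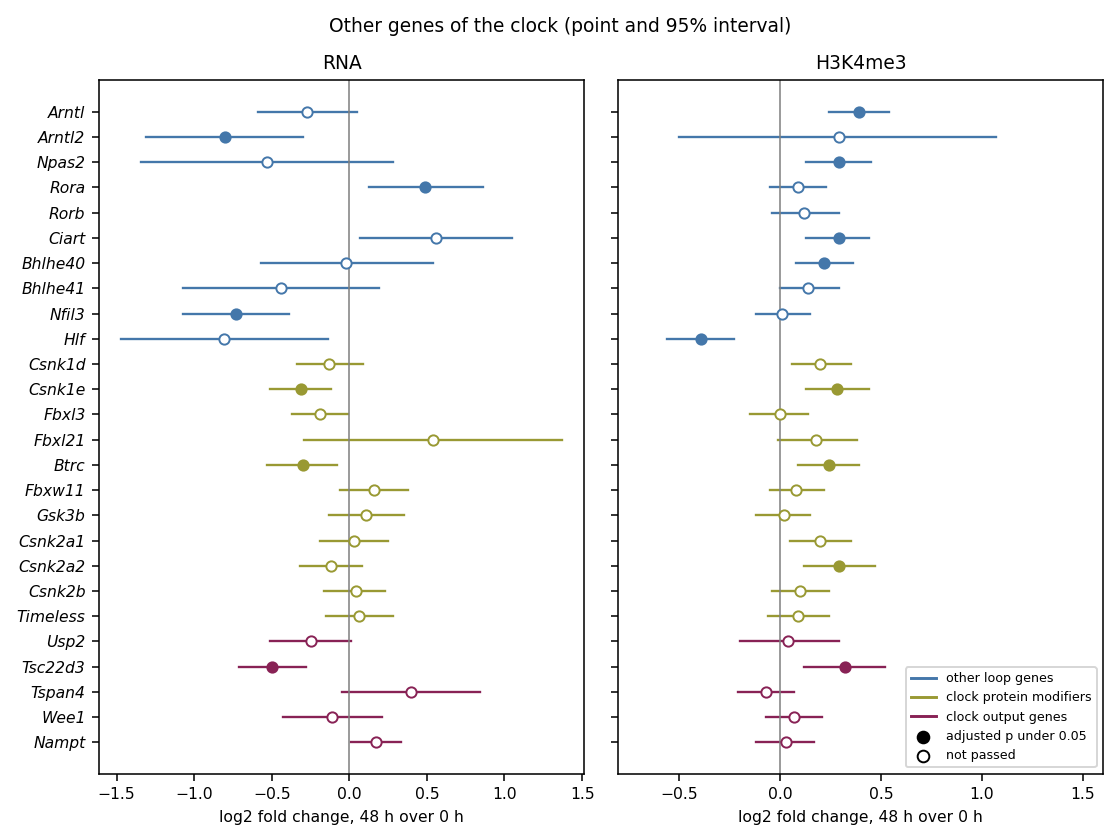
Log2 fold change (48 h over 0 h, with 95% intervals) of other clock genes in RNA (left) and H3K4me3 (right); filled points passed an adjusted p under 0.05 by edgeR, and Rorb has no RNA point. Arntl2 (-0.80) and Nfil3 (-0.73) lie lowest among the filled RNA points shown, and Arntl (0.39) and Hlf (-0.39) lie at the ends of the filled H3K4me3 points.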

How the data were processed

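RNA and H3K4me3 were analysed separately. The authors deposited raw counts per Entrez gene ID for both assays; the values are whole numbers and show no normalization. STAR, kallisto, sleuth, Picard and FastQC 0.11.5 are named for RNA, per the submitters' processing notes, and ChIPseeker 1.18.0, MACS2 2.2, Bowtie2 2.2.9 and Trimmomatic for ChIP-seq, with build mm10; which program counted is not given in the sources used here. Each assay was fitted over all genes with edgeR 4.0.16 (R 4.3.3; TMM, filterByExpr, quasi-likelihood test, Benjamini-Hochberg). The method was tried on counts simulated from the spread it had fitted. The changes simulated in the mark were larger than those called there for clock genes, so the trial does not bear on those calls. CPM were computed here. SEs and p-values borrow spread across genes and can be smaller than a gene's own libraries give. Alternatives were DESeq2 1.42.0 and its size factors, library-size scaling, no filter or a filter at 1 CPM, a replicate block and leaving out each library. Symbols, spans and promoter windows came from RefSeq tables (GRCm38.p6), which gave a symbol for 24742 of the RNA IDs. The input library was not used. H3K4me3 columns were matched to their group by name, and their number serves only to name, leave out and block libraries. All 10 members are named whatever their values, other clock genes are all counted, and genes of like pattern are the 5 with the highest r for each of Per1, Cry1, Nr1d1 and Dbp, leaving out members and predicted genes. Some genes within these counts and rules are not reported here. The members and lists were chosen with earlier results of these data known. No replicates of a group were within counting noise of each other (chi-square per degree of freedom 1.69 to 38.5), so none was treated as 1 library deposited more than once; this does not show that they are independent, for which the series' description is the source.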

Additional observations from a re-analysis of the deposited data

How the results depend on the processing

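Dbp RNA kept its direction and call in all 12 alternatives. Estimates of members that were not called and changed sign or reached 0 were, in RNA, Per1 without 0 h replicate 3 (0.00), Cry1 with library-size scaling (-0.11) and without 48 h replicate 3 (-0.04), Nr1d1 with DESeq2 size factors (0.00), with DESeq2 (0.01), without 0 h replicate 2 or 3 or 48 h replicate 2 (0.12 each) and without 48 h replicate 3 (0.13), Nr1d2 without 0 h replicate 2 (0.04) or 3 (0.03), and Tef without 0 h replicate 3 (0.01). In H3K4me3 they were Nr1d2 with library-size scaling (-0.00) and without 48 h replicate 1 (-0.01), Dbp without 0 h replicate 1 (-0.01), and Tef with library-size scaling (-0.01) and without 48 h replicate 2 (-0.01). With 1 library left out, the log2 fold change ranged, in RNA, from -0.47 to 0.00 for Per1, -0.04 to 0.19 for Cry1, -0.32 to 0.13 for Nr1d1, -0.19 to 0.04 for Nr1d2 and -0.17 to 0.01 for Tef, and, in H3K4me3, from -0.01 to 0.11 for Nr1d2, -0.01 to 0.11 for Dbp and -0.01 to 0.08 for Tef. The cause was not tested. Members called in RNA numbered 4 with library-size scaling, which gave 26.8% of calls as higher against 50.2%, and 1 to 3 with 1 library left out. All RNA calls numbered 2882 to 5345 with 1 library left out. In H3K4me3, 1 member was called with library-size scaling (52.3% of all calls higher against 75.4%), with DESeq2 and with the block, and 0 to 3 with 1 library left out; all calls numbered 864 with DESeq2 and 282 to 2764 with 1 library left out, where a lone sample is assumed to vary like the other group. Other clock genes called in RNA numbered 12 with library-size scaling and 3 to 9 with 1 library left out, and in H3K4me3 2 with library-size scaling, 2 with DESeq2 and 0 to 9 with 1 library left out.

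With the replicate number as a block, 3312 genes were called in RNA, 1 of them a member (Dbp) and 3 of the other clock genes, and 1280 in H3K4me3, 1 a member (Nr1d1) and 6 of the other clock genes; the H3K4me3 call of Clock was lost (edgeR adjusted p = 0.109). Same-numbered libraries did not deviate together (r across genes of -0.21, -0.15 and -0.13 in RNA and 0.02 in H3K4me3). These deviations are taken from group means of few libraries, so they cannot decide whether the numbers pair the samples. The labels do not say whether they do. In H3K4me3 r was -0.37 over the 14698 genes of at least 5 CPM, and a block with crossed numbers, chosen after seeing the data, called 4144 genes, 4 members and 12 other clock genes. All members had enough counts to be tested in both assays; the few libraries limit the precision, with the widest RNA interval for Nr1d1 (-0.63 to 0.58).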
